A study of Mus musculus with 10 samples.

Results

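Pmp22, Emp1, Emp2, Emp3 and Perp are 5 of the 21938 protein-coding genes annotated in GENCODE vM21 on chromosomes 1 to 19, X and Y. They were selected by name and not by a cut on the lists analysed here, but with earlier results of these data known. Each gene was examined with 50 kb on both sides of its body, a stretch called its window here, and the 5 windows together covered 598.9 kb of the mouse genome (mm10). All cells were AB17 hepatocytes, a C57BL/6 line with loxP-flanked Arid1a alleles (Arid1afl/fl) made immortal by SV40 large T and an activated H-Ras. Cells given the adenovirus Ad-GFP kept Arid1a and served as wildtype (WT), and cells given Ad-Cre, which carries Cre recombinase, were the knockout (KO, Arid1a-/-), so that both genotypes carried the same immortalizing genes and an adenoviral vector. Chromatin immunoprecipitation with sequencing (ChIP-seq) gave 8 peak lists, which were H3K9me3 and H3K27me3 in each genotype, and Arid1a, Brg1, Ctcf and Rad21 in WT cells. Each group was 1 library from 1 cell line. No p-value is therefore given, and no difference below has a replicate check. No Arid1a list of KO cells was analysed here, so the loss of Arid1a itself could not be checked from these lists.

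Pmp22 (peripheral myelin protein 22) and the epithelial membrane proteins Emp1, Emp2 and Emp3 are small proteins that cross the membrane 4 times, related to the claudins of tight junctions. Pmp22 is best known from the myelin of Schwann cells, where its dose is critical, but it is made in many epithelia, and Perp is a more distant relative that p53 and p63 activate and that helps to hold desmosomes together. H3K9me3 marks constitutive heterochromatin and H3K27me3 is laid down by Polycomb. Arid1a and Brg1 belong to SWI/SNF, a complex that moves nucleosomes, Ctcf is a zinc finger protein that binds a long DNA motif at domain borders, and Rad21 is a subunit of cohesin, which Ctcf halts. The study reported Pmp22 as repressed after Arid1a loss, and its contact with a distant enhancer as reduced in KO cells. The peak lists measure neither expression nor contact. The comparison of both genotypes here shows where the repressive marks lay at Pmp22 and its relatives with and without Arid1a.

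Every peak was listed by its highest point, called the summit, and its strength was given as −log10 of the q-value, which is comparable only within a list. Lists held between 70408 summits (Arid1a) and 143835 summits (WT H3K9me3), and the depth of sequencing is unknown, so a longer list can come from a deeper library. Strengths were low for most lists, with 0.111% of Arid1a and 0.146% of Brg1 summits reaching 10, against 27.2% of Ctcf and 13.7% of Rad21 summits. For H3K9me3 the share was 0.229% in WT and 0.224% in KO cells, and for H3K27me3 2.29% and 2.03%. The median H3K9me3 strength was 2.641 in WT and 2.47 in KO cells, not far above the lowest listed values of about 1.3. In the 5 windows the highest H3K9me3 strength was 5.08 in WT and 6.106 in KO cells, so the counts of this mark rest on weak summits. A summit at 10 or above is called strong here.

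Strong Ctcf summits lay in all 5 windows. The sequences of the strongest Ctcf summit in each window are printed to show the motif, followed by a further site at Emp1 and at Emp2 with a full match and by the Ctcf summit at the study's distant Pmp22 enhancer primers. All are from the plus strand of GRCm38, and capitals mark the best match to the Ctcf consensus of 12 letters, allowing 1 mismatch. The Pmp22 site lay in an intron at chr11:63135788-63135848, the Emp1 site in an intron at chr6:135377962-135378022, and the Emp2 site in the downstream flank at chr16:10272441-10272501. The Emp3 site at chr7:45872739-45872767 lay just before the start of Kdelr1, a neighbouring gene, and was kept to 29 bases since a longer stretch would reach an untranslated exon. The Perp site lay between genes in the downstream flank at chr10:18904265-18904325. The further sites were at chr6:135400500-135400560 beyond Emp1, chr16:10280416-10280476 beside the 3′ end of Emp2, and chr11:62921198-62921258 far upstream of Pmp22.
Pmp22 intron: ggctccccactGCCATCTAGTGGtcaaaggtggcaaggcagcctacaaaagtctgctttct
Emp1 intron: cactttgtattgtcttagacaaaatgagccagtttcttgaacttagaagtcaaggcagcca
Emp2 downstream: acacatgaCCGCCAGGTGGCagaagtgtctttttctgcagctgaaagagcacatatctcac
Emp3 downstream: caggcgccagagggcgccagacagtcaac
Perp downstream: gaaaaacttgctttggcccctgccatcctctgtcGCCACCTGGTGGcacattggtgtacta
Emp1 downstream: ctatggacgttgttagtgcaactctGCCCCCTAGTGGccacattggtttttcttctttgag
Emp2 end: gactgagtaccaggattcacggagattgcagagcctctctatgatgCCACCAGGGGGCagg
Pmp22 distant: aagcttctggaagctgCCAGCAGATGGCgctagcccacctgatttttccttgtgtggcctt

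The Ctcf consensus was matched without mismatch within 50 bp of 4 of the 49 Ctcf summits of the windows, at Perp, Pmp22, Emp2 (the site beside its 3′ end) and Emp1 (the downstream site). Over the whole Ctcf list 5.62% of summits had a full match and 21.4% a match with at most 1 mismatch, against 0.173% and 1.54% at positions moved by 2 kb. Of the 17 strong Ctcf summits in the windows, 11 had a match with at most 1 mismatch, where 50.3% of all strong Ctcf summits did. The strongest Emp1 site, with a strength of 34.93, had no match within that limit, and neither did the strongest Emp3 site. At Emp1 a match with 1 mismatch, on the minus strand, lay within 50 bp of the Rad21 summit 60 bp away. It was outside the stretch searched around the Ctcf summit. A missing match says only that these letters were not in the window searched. The matches at Pmp22, Perp and the downstream Emp1 site were on the minus strand, and those of Emp2 were on the plus strand.

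At Pmp22 all 4 factors were listed by the inner transcript starts, a strong pair of Ctcf and Rad21 summits lay in the gene, and the repressive marks lay mostly outside it. Pmp22 (ENSMUSG00000018217.12, chr11:63128982-63159547, plus strand) has 5 annotated transcript starts, since it is read from alternative promoters. Its window held 8 Arid1a, 10 Brg1, 13 Ctcf and 12 Rad21 summits. The Ctcf summit printed above, 6836 bp inside the gene, had a strength of 78.75, and 1.02% of the Ctcf list was at least as strong. The Rad21 summit 22 bp away from it had a strength of 52.51, which 0.595% of the Rad21 list reached. This pair of summits stood apart from both SWI/SNF subunits, the nearest Brg1 summit being 2507 bp and the nearest Arid1a summit 4126 bp away. The other strong Ctcf summits of the window were weaker, at 24.31 downstream of the gene and at 10.45 within Tekt3, the upstream neighbour.

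All 4 factors had a summit within 2 kb of one of the inner Pmp22 starts, and none had one within 2 kb of the outermost start. Arid1a was listed there once, at chr11:63131692 (1.986), and Ctcf 14 bp from it at chr11:63131706 (3.589). Brg1 had summits at chr11:63131302 (3.586) and chr11:63132690 (2.122). A second Ctcf summit at chr11:63133024 (7.916) and the only Rad21 summit of the region at chr11:63133143 (7.553) lay 119 bp apart. The strongest SWI/SNF summits of the window were not at the starts but just upstream, Brg1 at 4452 bp (4.485) and Arid1a at 2131 bp (3.994) before the outermost start. An Arid1a summit of the same strength lay downstream of the gene, by the start of the non-coding gene B430319H21Rik.

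H3K9me3 had 16 summits in the Pmp22 window in WT cells and 16 in KO cells. Their places differed in part: the WT summits comprised 2 in the gene body, 3 upstream and 11 downstream, and the KO summits 1 at the start, 6 upstream and 9 downstream. The KO summit at the start lay 168 bp inside the outermost transcript, in its 5′ exon, with a strength of 2.252 that 64.5% of the KO list reached. Of the WT summits, 7 (43.8%; exact 95% interval 19.8 to 70.1, counting error only) had a KO summit within 1 kb. H3K27me3 was nearly absent from the window, with 2 WT summits (2.287 and 1.475), both over 40 kb upstream near Tekt3, and 0 KO summits. A count of 2 against 0 is too low for a fold.

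The study's primers for the Pmp22 enhancer and promoter placed these sites in a wider frame. The enhancer pair, a further enhancer primer and the promoter primer are printed to show where the study tested the locus, and each matched chromosome 11 once. They were taken from the study's primer table and placed on GRCm38.
mP22-EF: ggaagacaggaaaacagagcg
mP22-ER: ggacaagtgagatgaggcacac
mP22E-F5: ctcactggcttggcggtatctgctcttg
mP22P-R: gactggagggaaggagacagtgcgtaaaga
The enhancer pair spanned chr11:62921433-62921539, 208 kb upstream of the outermost Pmp22 start, in the antisense gene Tvp23bos, and the promoter primer covered chr11:63132357-63132386. Beside the enhancer pair lay the distant Ctcf summit printed above (chr11:62921228, strength 50.93, reached by 5.03% of the list), a Rad21 summit 55 bp from it (42.15), 3 Arid1a summits within 1 kb (3.812, 2.537 and 2.95) and 1 Brg1 summit 748 bp away (2.449). So all 4 factors were listed at the distant site, where 8.3% of the 24822 strong Ctcf summits of the genome had both Arid1a and Brg1 within 1 kb. The nearest Arid1a summit was 12 bp from the middle of primer mP22-ER, and the promoter primer lay 318 bp from a Brg1 summit and 680 bp from the Arid1a summit at the start. The Ctcf motif at the distant site was on the plus strand and that in the Pmp22 intron on the minus strand, so that they pointed towards each other over 215 kb. Convergent motifs are the arrangement found at most cohesin loops, as general background. Contact between the sites was not measured by these lists. The pair was chosen by the primers and by the full match in the gene, and how often such sites face each other was not counted. Other strong Ctcf summits lay near, at chr11:62901855 (39.27) farther upstream and at chr11:63165306 (24.31) downstream of the gene. The latter also had a minus-strand match, with 1 mismatch. Between them lay the coding genes Cdrt4 and Tekt3, 5 Ctcf summits of which 1 was strong (10.45), and 12 Rad21 summits with a strength of at most 7.553. H3K9me3 was not listed within 1 kb of the distant Ctcf summit in either genotype, the nearest summits being 1017 bp away in WT and 1007 bp away in KO cells, and the nearest H3K27me3 summits were 112517 bp and 50073 bp away.

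**Figure D1:**
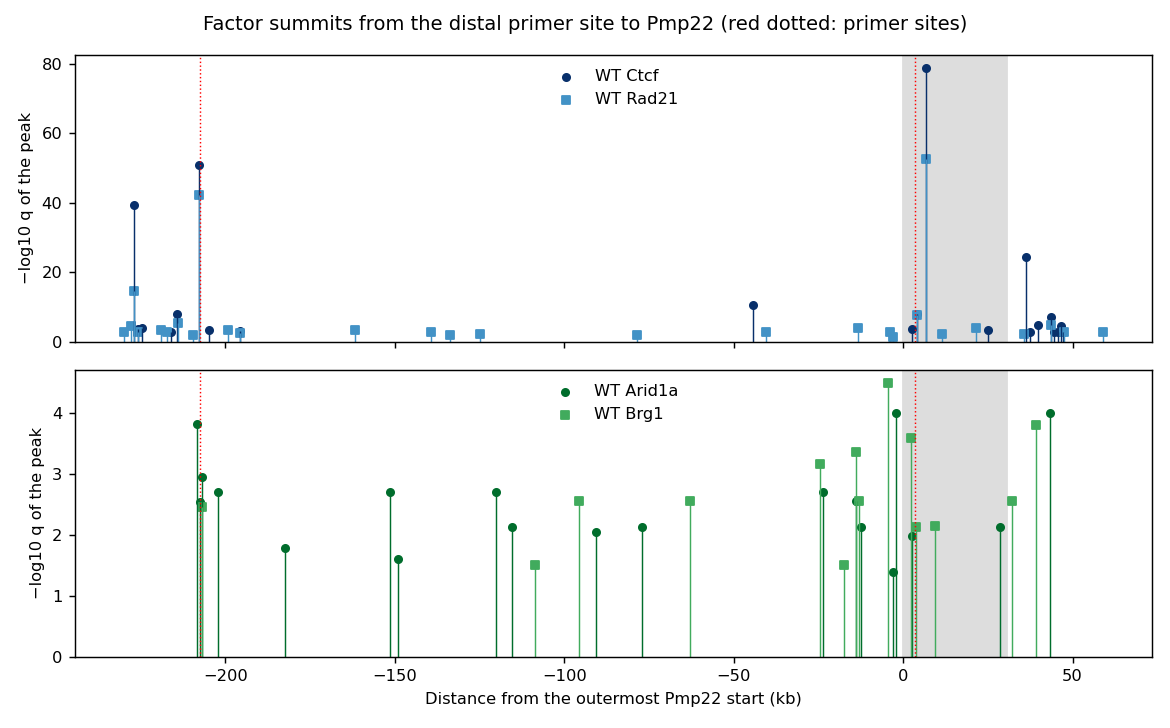
Strength (−log10 q, vertical axis) of Ctcf and Rad21 summits (upper panel) and of Arid1a and Brg1 summits (lower panel) in WT cells, by distance in kb from the outermost Pmp22 start. The gene body is grey and red dotted lines mark the enhancer primer mP22-EF and the promoter primer mP22P-R; Ctcf and Rad21 reach 50.93 and 42.15 at the distant primer site and 78.75 and 52.51 in the gene, while Arid1a and Brg1 summits stay at or below 4.485.

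Emp1 (ENSMUSG00000030208.15, chr6:135362545-135383173, plus strand), a gene induced by growth factors in many epithelia, had little H3K27me3 and all 4 factors within 2 kb of a start. Its window held 2 Arid1a, 7 Brg1, 9 Ctcf and 13 Rad21 summits. Arid1a at chr6:135364179 (3.116) and Brg1 at chr6:135364214 (3.066) were 35 bp apart, 1.6 kb inside the gene, with further Brg1 summits at 125 bp (2.556) and 3576 bp (2.556) from the outermost start. Ctcf lay 48 bp before that start (4.729), and Rad21 had 3 summits by the starts (4.930, 3.193 and 3.342). The strong Ctcf summits were in an intron (34.93), with Rad21 60 bp away (27.84), and downstream at 33.91 and 10.59, with Rad21 23 bp (11.51) and 24 bp (4.011) away. The strongest Arid1a summit of the window was 6387 bp upstream (3.326) and the strongest Brg1 summit 21867 bp upstream (4.507), outside the gene as at Pmp22.

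H3K9me3 at Emp1 numbered 11 summits in WT and 8 in KO cells, a ratio of 0.727 whose exact interval (0.254 to 1.99) covered counting error only. In WT cells 8 of the 11 lay upstream, and in KO cells 3 of the 8. At the start WT cells had none and KO cells had 1, at chr6:135363833 with a strength of 3.109, 381 bp from the nearest Brg1 summit and level with the strongest KO summits of the window. H3K27me3 was confined to 2 WT summits (2.287 and 1.67) and 1 KO summit (2.164) more than 40 kb downstream of the start, and the KO summit lay 275 bp from a WT one.

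Emp2 (ENSMUSG00000022505.9, chr16:10281749-10313968, minus strand), which acts on integrins and the focal adhesion kinase, had H3K27me3 on one side and none in its body. A run of H3K27me3 summits, each at most 5 kb from the next, filled the flank beyond the 3′ end of the gene in both genotypes. The run had 15 summits over 24.0 kb in WT cells (chr16:10254421-10278372) and 16 summits over 22.5 kb in KO cells (chr16:10256379-10278920). It lay wholly on one side of the Ctcf summit 1325 bp beyond the 3′ end of Emp2 (chr16:10280424, strength 35.22, Rad21 84 bp away at 29.08). The last H3K27me3 summit before this Ctcf site was 2052 bp away in WT and 1504 bp away in KO cells. On the gene side of the site 1 H3K27me3 summit was listed in each genotype, at 1.319 and 1.634, and the gene body had 0.

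H3K9me3 at Emp2 lay mostly on opposite sides of this site in the lists of the genotypes. The site, the strong Ctcf summit nearest the 3′ end, was taken as the dividing point with the data in view. Divided at the strongest Ctcf summit of the window (chr16:10272488) instead, the 6 KO summits fell 3 on each side and all 10 WT summits again on the gene side, and the H3K27me3 run was split, with 11 summits beyond and 5 on the gene side in WT and 11 and 6 in KO cells. In WT cells all 10 summits were on the gene side of that Ctcf site, 5 of them in the gene body (2.026 to 4.485), 1 at the start and 4 upstream. In KO cells 5 of the 6 summits were on the other side, within the H3K27me3 run, at strengths of 1.885 to 2.47, and 1 lay 2524 bp upstream of the start (3.109). No WT summit had a KO summit within 1 kb (0 of 10, exact upper limit 30.8%), whereas 31.1% of the whole WT list did. Of the KO summits, 5 of 6 had a KO H3K27me3 summit within 1 kb, and of the KO list as a whole 4.85% did. These 5 lay within the dense run, and the part of its density in this share was not tested. The total was 10 against 6, a ratio of 0.6 (exact interval 0.179 to 1.82), and chromosome 16 as a whole had a ratio of 1.01. With 1 library per genotype the sides are a description of these lists.

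**Figure D2:**
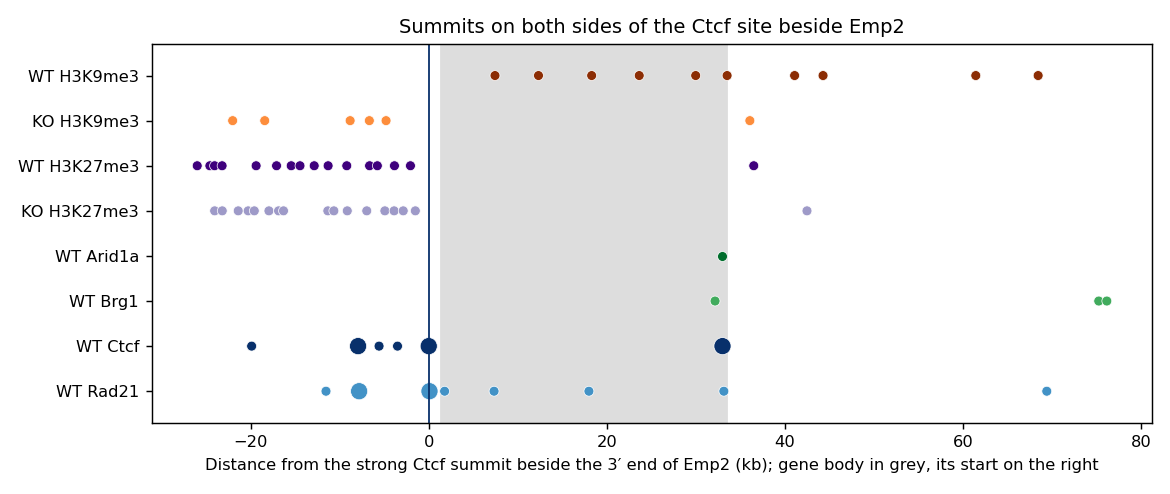
Summits of the 8 lists in the Emp2 window by distance in kb from the strong Ctcf summit beside the 3′ end of the gene (vertical line); the gene body is grey, with its start on the right, and large points are summits with a strength of at least 10. All but 1 H3K27me3 summit of each genotype and 5 of 6 KO H3K9me3 summits lie left of the line, and all 10 WT H3K9me3 summits lie right of it.

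The Emp2 start had all 4 factors in a stretch of about 1 kb. Arid1a at chr16:10313356 (2.042, its only summit in the window) was 63 bp from a strong Ctcf summit at chr16:10313419 (16.15). Rad21 lay 151 bp from Ctcf at chr16:10313570 (5.466), and Brg1 836 bp from it at chr16:10312583 (3.366). The WT H3K9me3 summit at the start (chr16:10313935, 2.026) was 33 bp inside the gene. Beyond the 3′ end the strongest Ctcf summit of the window, printed above (38.15), sat inside the H3K27me3 run with Rad21 119 bp away (21.54). No Arid1a or Brg1 summit was listed on that side.

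Emp3 (ENSMUSG00000040212.12, chr7:45918023-45921404, minus strand), the shortest of the 5 genes, lay in the most crowded window, among Tmem143, Syngr4, Kdelr1, Grin2d, Ccdc114 and Abcc6. H3K9me3 had 21 summits there in WT cells (2.026 to 5.08) and 6 in KO cells (1.885 to 3.796). The ratio was 0.286 (exact interval 0.0944 to 0.732, counting error only), and Emp3 was the only member with at least a 2-fold difference in this mark. Over all genes with at least 5 summits of both genotypes together, 41.9% of 19189 windows were lower by 2-fold or more in KO cells and 10.9% were higher, so 1 of 5 members lower and 0 of 5 higher is no excess over the background. Among summits with a strength of at least 3 the counts were 8 and 5, below a 2-fold difference. The summits missing from the KO list included both WT summits at the start, chr7:45919224 (2.641) and chr7:45920386 (3.965), the nearer KO summit being 6736 bp away. A group of 7 WT summits 2 to 11 kb upstream, in and before Ccdc114, had 3 KO summits, at 3.193, 3.109 and 3.796, beside it.

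H3K27me3 at Emp3 differed little between the lists, with 10 WT and 9 KO summits. In both genotypes 8 of them formed a run far upstream, near the 3′ end of Abcc6, over 13.3 kb in WT and 11.7 kb in KO cells. The strongest H3K27me3 summits of all 5 windows were at the opposite edge, within Grin2d and close to the start of Kdelr1, at chr7:45870808 in WT (20.77, reached by 0.503% of the list) and chr7:45871242 in KO cells (10.22, reached by 1.92%). Both lay about 50 kb from the Emp3 start. The Emp3 start and body had 0 H3K27me3 summits in either genotype.

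The factors at Emp3 numbered 7 Arid1a, 4 Brg1, 14 Ctcf and 16 Rad21 summits. At the starts, Brg1 at chr7:45920961 (5.121) was the strongest Brg1 summit of all 5 windows, reached by 3.81% of its list. A second Brg1 summit (2.356) and an Arid1a summit (2.378) lay 185 bp apart upstream of the gene, also within reach of the start of Ccdc114. Ctcf had a strong summit in an Emp3 intron (20.67) and a weak one (3.348), and Rad21 one at 2.625 in the coding exon 478 bp from the strong Ctcf summit. With the site at Kdelr1 (56.58, Rad21 14.36 at 19 bp), Emp3 had 6 strong Ctcf summits, the most of the 5 windows, the others being at 19.39, 16.55, 13.49 and 25.47. Rad21 was strong at 2 of them, the Kdelr1 site and the site with 13.49 in Ccdc114 (14.26). Of the WT H3K9me3 summits 12 of 21 (57.1%, exact interval 34.0 to 78.2) had any Ctcf summit within 1 kb, compared with 13.7% of the whole WT list, and 6 of 21 had a strong one. The Emp3 window held 13.5 Ctcf summits per 100 kb, and the part of this density in the share was not tested.

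Perp (ENSMUSG00000019851.8, chr10:18845020-18857073, plus strand), the most distant relative, was the member with the most H3K27me3 and the fewest factors at its start. The mark had 32 summits in WT and 28 in KO cells, a ratio of 0.875 (exact interval 0.508 to 1.5). Only 6.65% of all coding genes had as many WT summits in their window, and 6.22% as many KO summits. In both genotypes 20 summits lay in the upstream flank, mostly in runs, the longest of 19.7 kb in WT and 21 kb in KO cells, and the run nearest the gene reached its start. A summit 555 bp before the start (chr10:18844465, 8.945) was the strongest of the 32 WT summits and was reached by 2.81% of the WT list. The KO summit 46 bp from it (chr10:18844511, 3.156) ranked ninth of 28 and was reached by 40% of the KO list, and another KO summit lay 1084 bp inside the gene (2.252). The strengths of separate libraries cannot be subtracted, so only the ranks are set side by side. Farther than 2 kb from the start, 0 summits of any of the 8 lists fell in the Perp body.

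H3K9me3 at Perp had 9 summits in each genotype and none at the start or in the body. In WT cells 3 lay upstream and 6 downstream, and in KO cells 4 and 5, several of the downstream ones around the non-coding gene Gm48483. Of the 9 WT summits 1 had a KO summit within 1 kb. Arid1a was listed 43 bp before the start at a strength of 1.791, which 89.6% of its list reached. All 4 Arid1a summits of the window had WT H3K27me3 within 1 kb (exact interval 39.8% to 100%), against 4.07% of the whole Arid1a list. The window held 28.6 WT H3K27me3 summits per 100 kb, where the merged windows of all genes held 5.44. The part of this density in the share was not tested. Brg1, Ctcf and Rad21 had 0 summits within 2 kb of the start. The strongest Ctcf summit of the 5 windows (84.96) and the Rad21 summit 17 bp from it (57.73) lay 59.3 kb past the Perp start, inside a downstream H3K27me3 run of 10.2 kb in WT and 11.3 kb in KO cells. The other strong Ctcf summit was 8934 bp upstream (17.96), with Rad21 218 bp away (7.766).

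**Figure D3:**
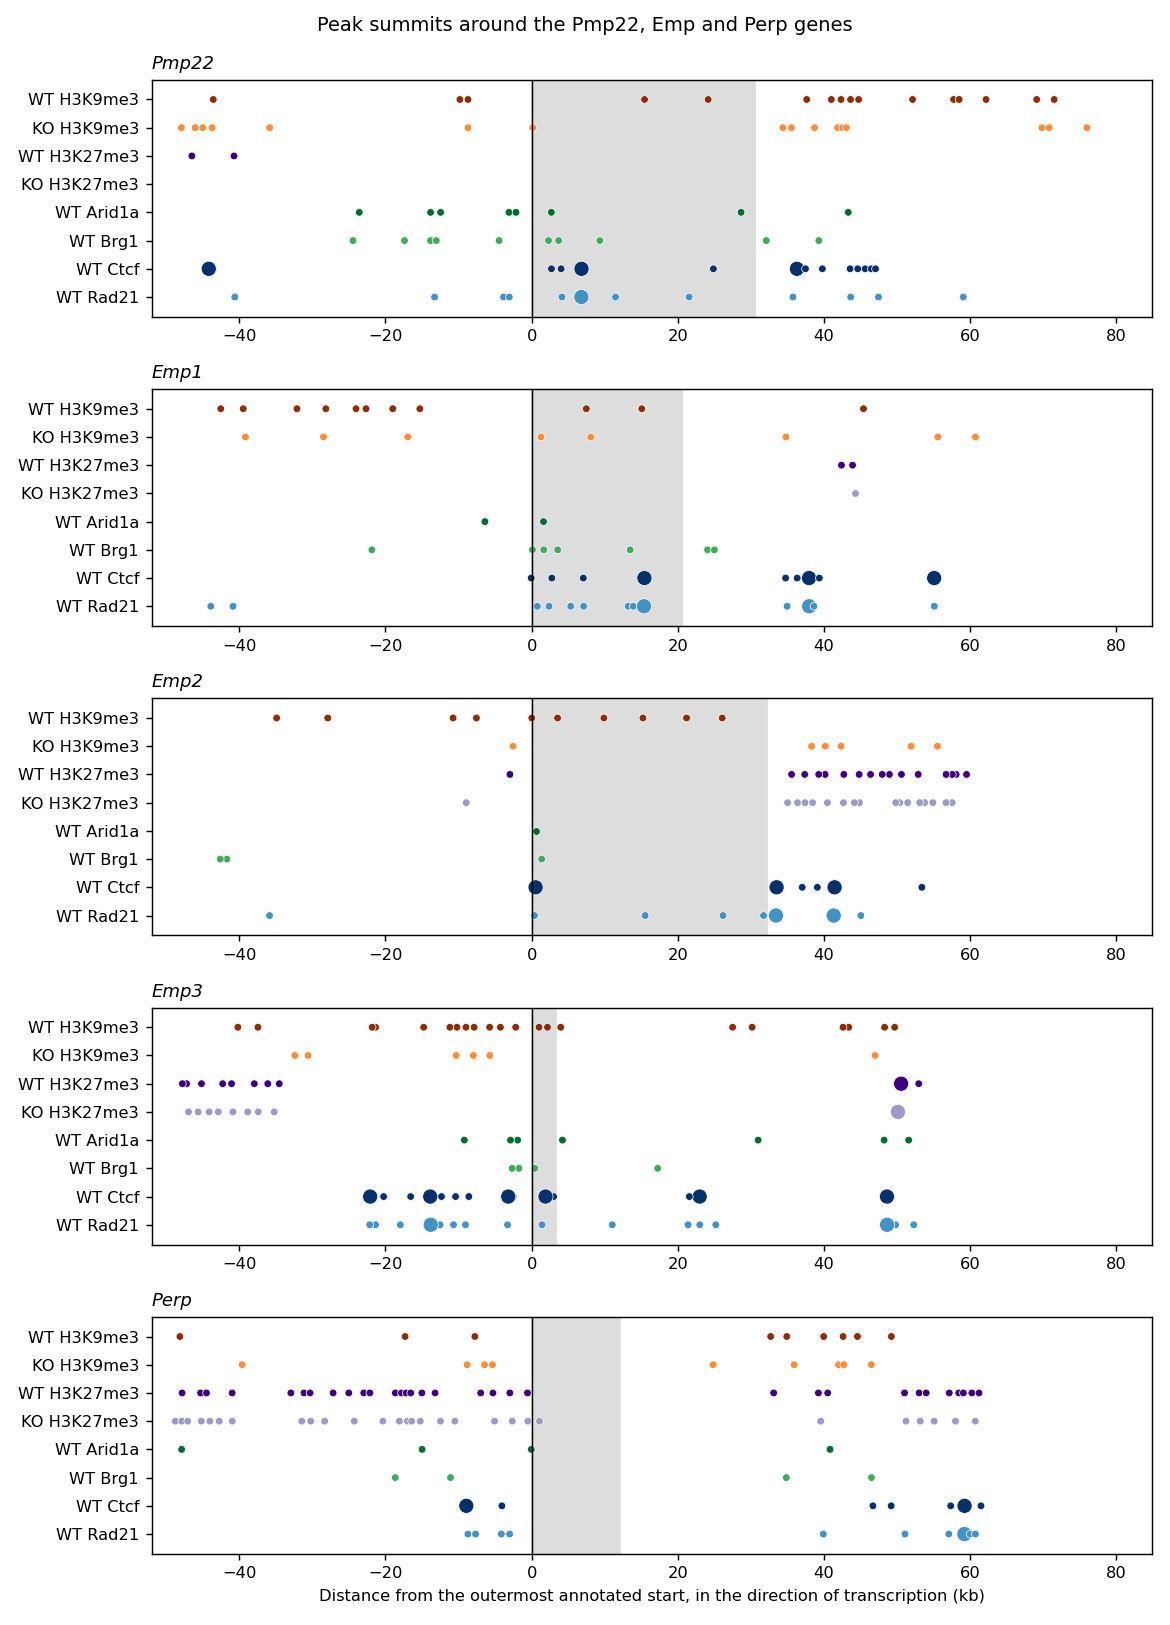
Summits of the 8 peak lists (rows) in the windows of the 5 genes, by distance in kb from the outermost annotated start in the direction of transcription; the gene body is grey, and large points are summits with a strength of at least 10. Perp and Emp2 carry runs of H3K27me3 in both genotypes (32 and 28 summits at Perp, 16 and 17 at Emp2), Pmp22 and Emp1 have at most 2, and strong Ctcf and Rad21 summits lie in every window.

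Set side by side by place, the 5 genes had Arid1a within 2 kb of a start. Their bodies beyond the starts had 0 H3K27me3 summits, but how many coding genes share this was not counted. Whole windows without the mark are common, since the lower quartile over coding genes was 0 summits in both genotypes. Arid1a was listed within 2 kb of a start in 5 of 5 members, where 41.8% of all coding genes had such a summit. Brg1 was listed in 4 of 5 (background 45.7%), Ctcf in 4 of 5 (50.9%) and Rad21 in 4 of 5 (57.0%), Perp being the exception each time. All 4 factors together were at the start of Pmp22, Emp1, Emp2 and Emp3, while 24.0% of coding genes had all 4. With 1 kb in place of 2 kb only Pmp22 had all 4 (16.8% of coding genes), and Arid1a was listed at 3 of 5 members and Brg1 at 3 of 5. With the outermost start alone Emp1, Emp2 and Emp3 had all 4 (16.6%) and Pmp22 had 0 of them. With 5 genes this is a description, and Pmp22, Emp1 and Emp3, with 5 annotated starts each, offered more room for a summit than a gene with 1 start. H3K9me3 stood at a start in WT cells at Emp2 and Emp3 (2 of 5, background 48.1%) and in KO cells at Pmp22 and Emp1 (2 of 5, background 22.4%). H3K27me3 was at a start in 1 of 5 in WT (26.0%) and in 1 of 5 in KO cells (22.1%), Perp in both. The combination of WT H3K9me3 and Brg1 at a start with no KO H3K9me3 there held for Emp2 and Emp3, and for 22.0% of all coding genes.

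The promoter sequences that the results touch are printed with the short motifs searched in capitals. The windows were the 250 bases before a RefSeq transcript start (GRCm38.p6), shortened where another transcript's untranslated exon overlapped, and are given 5′ to 3′ on the strand of the gene. The Pmp22 and Emp3 promoters were chosen because a Brg1 summit fell inside them (chr11:63131207-63131456 and chr7:45920852-45921099), and the Emp1 and Emp2 promoters for the factors beside them (chr6:135362708-135362903 and chr16:10313969-10314218).
Pmp22 promoter: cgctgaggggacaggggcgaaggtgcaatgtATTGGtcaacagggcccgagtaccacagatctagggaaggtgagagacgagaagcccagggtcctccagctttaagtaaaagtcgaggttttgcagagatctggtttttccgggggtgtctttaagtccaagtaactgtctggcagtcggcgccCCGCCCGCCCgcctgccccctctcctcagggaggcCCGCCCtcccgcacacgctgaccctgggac
Emp1 promoter: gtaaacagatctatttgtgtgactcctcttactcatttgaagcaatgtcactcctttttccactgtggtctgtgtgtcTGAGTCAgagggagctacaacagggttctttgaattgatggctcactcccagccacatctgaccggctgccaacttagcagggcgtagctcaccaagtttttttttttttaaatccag
Emp2 promoter: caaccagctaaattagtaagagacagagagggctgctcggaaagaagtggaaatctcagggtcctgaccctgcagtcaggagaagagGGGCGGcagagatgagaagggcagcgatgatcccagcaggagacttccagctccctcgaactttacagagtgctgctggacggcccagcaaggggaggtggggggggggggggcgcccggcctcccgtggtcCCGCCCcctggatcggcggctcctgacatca
Emp3 promoter: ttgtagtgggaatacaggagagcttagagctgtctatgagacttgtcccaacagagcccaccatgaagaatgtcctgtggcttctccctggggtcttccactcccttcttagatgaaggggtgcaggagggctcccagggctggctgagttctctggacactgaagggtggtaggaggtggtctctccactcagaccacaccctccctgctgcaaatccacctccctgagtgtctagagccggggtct
Motifs were searched on both strands. They were the GC box GGGCGG, bound by Sp1 and its relatives and present in 32.7% of 32851 promoters, the CCAAT box CCAAT (33.8%), the TATA box TATAAA (12.4%) and the AP-1 site TGANTCA (6.75%). None of these motifs contains another, and 2 of the 3 GC boxes of the Pmp22 promoter overlap. The printed Pmp22 promoter had 3 GC boxes and 1 CCAAT box and was 61.2% G and C, against a median of 52.4% over all promoters. A second Pmp22 promoter with a Brg1 summit (chr11:63132553-63132802), not printed because it overlaps an untranslated exon, had 3 GC boxes, 0 CCAAT boxes and 73.6% G and C. The Emp2 promoter had 2 GC boxes at 62.8%. The Emp1 promoter was poorer in G and C (44.4%) and had 2 AP-1 sites, of which the printed stretch holds 1. The Emp3 promoter under the strongest Brg1 summit, which precedes an inner start, had none of the 4 motifs. The promoter of the outer Emp3 start (chr7:45921427-45921676), not printed, had 1 TATA box. A match is a description of the letters and not evidence of binding.

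The H3K9me3 summits of the 5 windows numbered 67 in WT and 45 in KO cells, a ratio of 0.672 with an exact interval of 0.45 to 0.995 for counting error. The windows of all coding genes held 111516 and 87096 summits, a ratio of 0.781, which lay inside that interval, and the whole lists had a ratio of 0.938. Of the 5 members Emp3, Emp2 and Emp1 had fewer KO than WT summits, while Pmp22 and Perp had equal counts. For Pmp22 this stood beside a ratio of 0.649 over the whole of chromosome 11, the lowest of the 5 chromosomes concerned, which otherwise had ratios of 0.933 to 1.02. By place, the upstream flanks had 30 WT and 19 KO summits and the gene bodies beyond the starts 9 WT (5 of them in Emp2) and 1 KO summit (in Emp1), while the starts had 3 and 2 and the downstream flanks 25 and 23. Over all coding genes the ratio was 0.365 at starts, 0.784 in bodies and 0.943 in flanks, and 1.48 outside every window. These ratios count each summit once, by the starts, bodies and flanks of any coding gene, whereas members' summits were placed by the member alone. Flank summits of a member can lie in a neighbouring gene, as at Emp3, so the places are not counted alike. Of the WT summits 15 of 67 (22.4%; exact interval 13.1 to 34.2) had a KO summit within 1 kb, and of the whole WT list 31.1% did. In the other direction the share was 33.3% both for the 45 KO summits of the windows and for the whole KO list.

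H3K27me3 had 62 WT and 55 KO summits, a ratio of 0.887 (exact interval 0.606 to 1.3), beside 0.776 over all gene windows and 0.785 over the whole lists. The direction turned when the WT list was shortened to the length of the KO list (47 and 55 summits) and with flanks of 10 kb (9 and 10 summits), so no direction is drawn from these counts. None of the 3 members with at least 5 summits differed by 2-fold, whereas 26.5% of 11911 gene windows were lower and 2.52% higher in KO cells by that measure. The places were largely shared: 47 of 62 WT summits (75.8%; exact interval 63.3 to 85.8) had a KO summit within 1 kb, and 54.4% of the whole WT list did. Perp contributed 25 of these, Emp2 12, Emp3 9 and Emp1 1. Dense runs of summits raise the chance that a partner lies near, and the part of summit density in this share was not tested.

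**Figure D4:**
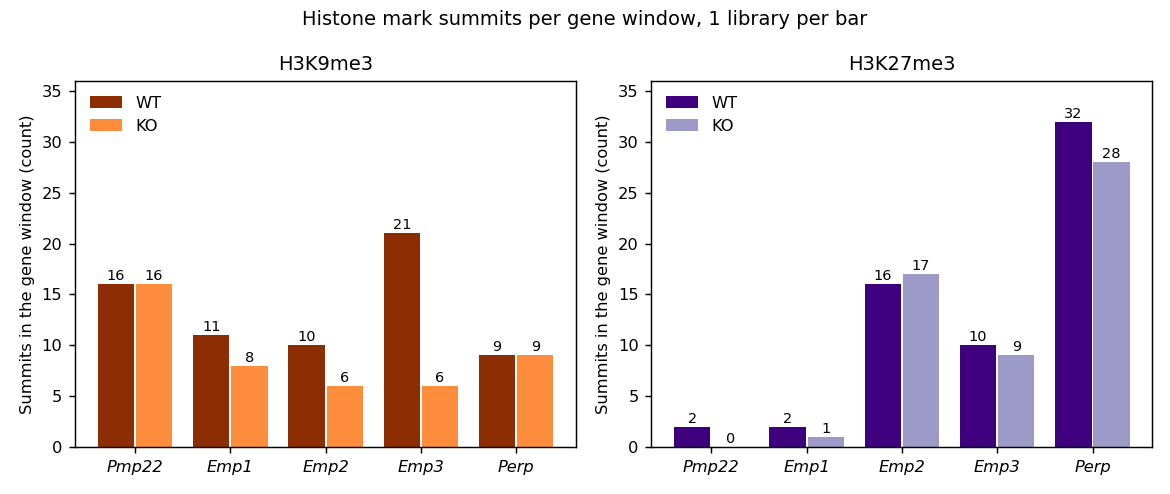
Number of H3K9me3 (left) and H3K27me3 (right) summits in the window of each gene, with WT and KO cells as paired bars and 1 library per bar, so that no error bar can be drawn. H3K9me3 at Emp3 has 21 WT and 6 KO summits, the largest difference, and H3K27me3 counts of the genotypes stay within 4 of each other at every gene.

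Rad21 and Ctcf summits lay together in these windows about as often as over the whole lists. Of the 59 Rad21 summits 33 (55.9%; exact interval 42.4 to 68.8) had Ctcf within 1 kb, against 52.0% of the whole list, and all 8 strong Rad21 summits did, as did 96.2% of all strong Rad21 summits. Of the 17 strong Ctcf summits 16 had Rad21 within 1 kb and 11 within 100 bp, where 94.2% of all strong Ctcf summits had Rad21 within 1 kb. The exception was the site within Tekt3 near Pmp22, 3568 bp from Rad21. Brg1 was within 1 kb of 10 of 59 Rad21 summits (16.9%; exact interval 8.44 to 29.0, whole list 22.2%) and of 0 of the 8 strong ones, where 22.7% of all strong Rad21 summits had it. Arid1a was within 1 kb of 12 of 59 (20.3%; whole list 18%). At the strong Ctcf summits Brg1 was within 1 kb of 2, at Emp2 and Emp3, and Arid1a of 3, against 21.3% and 16.1% of strong Ctcf summits in the genome.

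**Figure D5:**
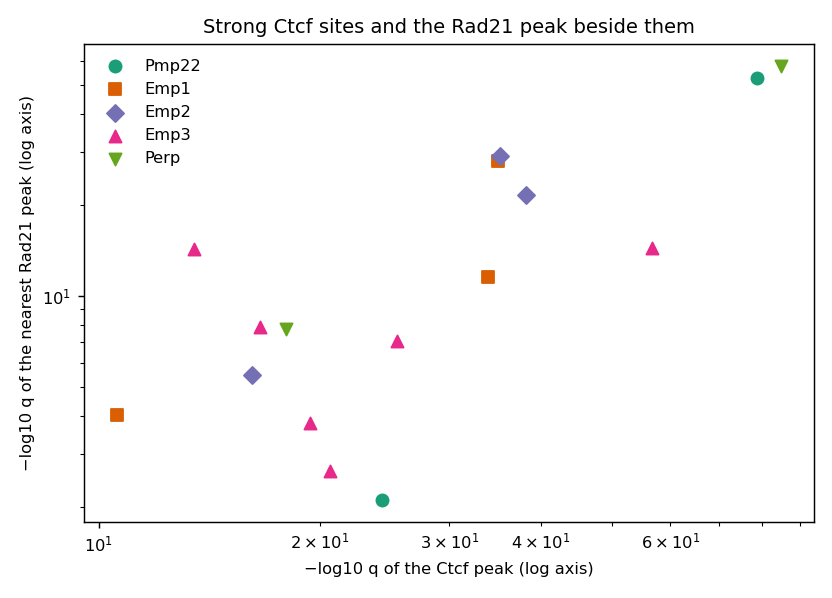
Strength (−log10 q) of the 16 strong Ctcf summits with Rad21 within 1 kb (horizontal, log axis) against the strength of the nearest Rad21 summit (vertical, log axis), with 1 point per site and 1 symbol per gene. The Perp and Pmp22 sites stand at the top right (84.96 with 57.73, and 78.75 with 52.51), while the Emp3 site at 56.58 has a Rad21 summit of 14.36.

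Of the WT H3K9me3 summits 21 of 67 (31.3%; exact interval 20.6 to 43.8) had Ctcf within 1 kb, compared with 13.7% of the whole WT list. Emp3 held 12 of these 21, and without it, a choice made after seeing the data, 9 of 46 (19.6%) had Ctcf within 1 kb. Of the KO summits 12 of 45 (26.7%; exact interval 14.6 to 41.9) did, compared with 5.96%, and without Emp3 10 of 39 (25.6%). The windows had 8.18 Ctcf summits per 100 kb, where the windows of all genes, merged where they overlap, had 4.88. Counted per gene the members were ordinary, with 6 to 14 Ctcf summits beside a median of 9 over all coding genes. Depending on the member, 30.6% to 67.6% of coding genes had at least as many. The part of Ctcf density in the shares was not tested. Arid1a summits had Rad21 nearby in 12 of 22 cases (54.5%, exact interval 32.2 to 75.6, whole list 25%). The windows had 9.85 Rad21 summits per 100 kb, beside 5.34 over the merged windows of all genes. Per gene, 25.8% to 58% of coding genes had at least as many Rad21 summits as a member. The part of Rad21 density in this share was not tested. WT H3K9me3 near Brg1 was less frequent, with 4 of 67 summits (5.97%; exact interval 1.65 to 14.6; whole list 14.9%). In the other direction 5 of 28 Brg1 summits (17.9%; exact interval 6.06 to 36.9) had WT H3K9me3, and the interval covered the whole-list share of 25.6%. Arid1a went the other way, near 10 of 67 WT H3K9me3 summits (14.9%; whole list 12.9%). Of the Arid1a summits 10 of 22 (45.5%; exact interval 24.4 to 67.8; whole list 25.2%) had WT H3K9me3.

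A list of 21 related genes set the members among their relatives and partners. It held 8 relatives of the 4-pass membrane family (claudins, Lim2, Nkg7 and Tmem47), 7 genes for proteins known to work with members (among them integrins, P2rx7, Cav1 and Ptk2) and 6 regulators (Sox10 and Egr2 of Pmp22 in Schwann cells, Tead1, Yap1, Trp53 and Trp63). Of the 19 with enough H3K9me3 summits 8 were lower in KO cells by 2-fold or more and 0 were higher, against the backgrounds of 41.9% and 10.9% given above. Trp53, which encodes p53, had 17 WT and 1 KO summits. Itgb4, the integrin partner in hemidesmosomes, had 20 and 5, and Sox10 had 18 and 5. Ptk2, the focal adhesion kinase gene with a window of 318.2 kb, had 52 and 24. The other genes lower by this measure were P2rx7, Cldn3, and the adjoining Lim2 and Nkg7, whose windows share their summits. In the opposite direction Itgb1 had 9 WT and 17 KO summits, which is below 2-fold.

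H3K27me3 was lower in KO cells by 2-fold or more at 3 of 9 related genes, Itga6 (7 and 0 summits), Itgb4 (7 and 2) and Tead1 (21 and 10), and higher at 0, beside 26.5% and 2.52% of all gene windows tested. Cldn14, a claudin of kidney and inner ear, had the largest number (60 and 49), and 11 of the 21 genes had none in either list. Sox10 had 12 WT and 20 KO summits, opposite to its H3K9me3 counts. At starts, Arid1a was listed in 11 of the 21 and Brg1 in 14, next to 5 and 4 of the 5 members. Over all coding genes the shares were 41.8% and 45.7%. The number of annotated starts per gene, which gives room for a summit, was not matched between these groups.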

How the data were processed

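ChIP-seq was done in 10 samples, of which 8 had peak lists and 2 were inputs that entered only through peak calling. The authors aligned reads to mm10 with Bowtie2, dropped low-quality reads with SAMtools and duplicates with Picard, then ran MACS2 at its defaults against the inputs (versions not given in the sources used here). Each deposited list gave every peak's summit position and its −log10 q (unit read from the values, all at least 1.3). Depth is unknown. The members and gene lists were chosen with earlier results of these data known. Named were the 5 members, with the strongest summit of each list, every summit at a start and every strong factor summit, and, of 21 related genes, those called by fold or with the highest counts. Itgb1 and the Sox10 H3K27me3 counts were named after their values were seen. The values of 1 related gene are not reported here, though it is in the counts over the list.

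Summits were placed on GENCODE M21 (GRCm38.p6) with Python 3.11.15, NumPy 2.4.6, SciPy 1.17.1 and Matplotlib 3.10.9. A start was within 2 kb of any annotated transcript start of the gene, the flanks were 50 kb, and shared meant within 1 kb. A gene was called at a 2-fold difference with at least 5 summits of both genotypes together. With 1 library per group no test was run, and exact Clopper-Pearson 95% intervals cover counting error only. The scripts were tested on simulated data. Promoters came from RefSeq and Ctcf sequences from the GRCm38 genome.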

Additional observations from a re-analysis of the deposited data

How the results depend on the processing

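The H3K9me3 ratio of the 5 windows (0.672) stayed below 1 under its 5 alternatives, from 0.652 to 0.864. The upper limits of its exact interval were 1 to 1.67 under these alternatives and 0.995 in the main setting. The ratio was therefore not clear of 1 by counting error alone. The H3K27me3 ratio (0.887) turned to 1.11 with flanks of 10 kb and to 1.17 with lists of equal length, and the cause was not tested. The share of WT H3K9me3 summits with a KO summit (22.4%, whole list 31.1%) was 13.4% within 500 bp (20%), 37.3% within 2 kb (43.1%) and 18.2% at a strength of at least 3 (26.2%). That of WT H3K27me3 summits was 50% within 500 bp (whole list 36%), 91.9% within 2 kb (71.3%) and 60% at a strength of at least 3 (45.6%). Rad21 summits had Ctcf in 69.5% of cases within 2 kb (whole list 65.7%) and in 100% at a strength of at least 5 (82%). They had Brg1 in 6.78% within 500 bp (14.3%) and in 32.1% with flanks of 10 kb (22.2%). The Brg1 share thus moved from below the whole list in the main setting (16.9%) to above it with the shorter flanks. Of 40 pairs of gene and list, 23 had a summit at a start, 20 within 1 kb, 28 within 5 kb and 19 at the outermost start alone. With a fold of 3, 5038 genes were lower and 1069 higher in KO cells for H3K9me3 (8037 and 2098 at a fold of 2), and 1483 and 102 for H3K27me3 (3158 and 300). With at least 10 summits together fewer genes were tested, 16187 for H3K9me3 and 9380 for H3K27me3 in place of 19189 and 11911. Of these, 7142 were lower (44.1%, main setting 41.9%) and 1214 higher (7.5%, main setting 10.9%) for H3K9me3. The H3K27me3 counts were 1937 lower (20.7%, main setting 26.5%) and 138 higher (1.47%, main setting 2.52%). The difference at Emp3 in H3K9me3 fell under 2-fold at a strength of at least 3 (8 and 5 summits). At Emp2 it passed 2-fold with flanks of 10 kb (7 and 3) and with summits merged within 3 kb (10 and 4). For H3K27me3, Pmp22 passed it with flanks of 100 kb (7 and 1) and Emp3 at a strength of at least 3 (6 and 3). No paired analysis was possible because each group had 1 library. Read depth, which is unknown, limits every count.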
